A study of Homo sapiens with 6 samples.

Results

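The sites described here are the Argonaute crosslink sites whose listed microRNA seed match is that of miR-23a-3p or miR-24-3p in the human cell line HK2, which derives from the proximal tubule of the kidney. Members were taken by the microRNA name in the deposited annotation, with every match type and every transcript feature kept. They numbered 574 of 16230 sites (3.54%), with 357 miR-23 sites and 217 miR-24 sites. Argonaute was pulled down after photoactivatable-ribonucleoside crosslinking (PAR-CLIP), in which cells take up 4-thiouridine and ultraviolet light joins that base to the protein, so that a site is a single T in the RNA. The groups were 2 Argonaute libraries of TGF-beta1 cells, exposed for 24 h to 20 ng/mL of the cytokine, and 2 Argonaute libraries of control cells, all starved of serum and given 100 uM 4-thiouridine for 20 h before light of 365 nm. Another 2 libraries, made with IgG, were not analysed here, so no pull-down background stands beside the values. Nothing in the labels says that the libraries of a group are separate cultures, so each p-value refers to the spread between libraries only, and that spread may be technical.

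MicroRNAs guide Argonaute to messenger RNAs by pairing of their seed, nucleotides 2 to 8 from the 5′ end, mostly with sites in 3′ UTRs, and the bound messages are repressed or degraded. miR-23, miR-27 and miR-24 are cut from shared primary transcripts, one encoding miR-23a, miR-27a and miR-24 and the other miR-23b, miR-27b and miR-24. Members of these clusters have been studied in epithelial and fibroblast responses to TGF-beta, a cytokine that drives extracellular matrix production and fibrosis in the kidney.

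The mature sequences are shown because every member was chosen by the capital letters, the seed. They are RefSeq entries on GRCh38.p14, encoded at chr19:13836595-13836615 (minus strand) for MIR23A, chr9:95085265-95085287 (plus strand) for MIR23B, and chr9:95086064-95086085 (plus strand) and chr19:13836289-13836310 (minus strand) for MIR24-1 and MIR24-2, which give the same mature RNA.
hsa-miR-23a-3p: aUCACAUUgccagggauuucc
hsa-miR-23b-3p: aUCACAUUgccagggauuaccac
hsa-miR-24-3p: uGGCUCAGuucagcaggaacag
miR-23a-3p and miR-23b-3p share the seed and could not be told apart at a site, and the RefSeq entry for miR-23c has it too. No other mature human entry in that table carries the miR-24-3p seed. The target match is AATGTGA for miR-23 and CTGAGCC for miR-24. In the authors' deposited table the score of microRNA reads, scaled to library depth, behind each seed were 884 for miR-23, 39th of 42 listed seeds, and 3790 for miR-24, 23rd of 42. That score was 8776 for miR-27, 8th of 42.

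The target windows that follow are 30 bases of hg38, 5′ to 3′ on the transcript strand, with the seed match in capitals and the crosslinked T at base 15. They are the most crosslinked miR-23 site, the miR-23 sites that passed the test between groups (PARD6B and IL11), and others discussed with them.
CNN2, chr19:1038997-1039026, plus strand: cctgctccgtgagatAATGTGAaatacgac
PNRC2, chr1:23962593-23962622, plus strand: tttggggagttggatAATGTGAaaatttta
MT2A, chr16:56609450-56609479, plus strand: ctttttctatgaaatAATGTGAatgataat
PARD6B, chr20:50750859-50750888, plus strand: tatttttaaaattctAATGTGAagtctgat
ZNF281, chr1:200406905-200406934, minus strand: gatcctattaagaatAATGTGAtgcccttt
MCFD2, chr2:46905402-46905431, minus strand: aatgtgacccgtgatAATGTGAttgaacac
ZFP36L1, chr14:68788646-68788675, minus strand: taaagttccccagttcatATGTGAcatctt
IL11, chr19:55365558-55365587, minus strand: aacagggaattaAATGTGtcatacatatcc
In the first 6 windows the crosslinked T stands directly before a full 7-base match. The MCFD2 window opens with a further copy of the match. In ZFP36L1 the match covers 6 bases (nucleotides 2 to 7) and the T lies 4 bases before it. In IL11 the match covers nucleotides 3 to 8, and the crosslinked T is the first of the T letters within it.

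For miR-24 the windows of 4 messenger RNA sites and of 1 small nucleolar RNA from the 10 strongest are shown, as examples of where the T lies; they do not stand for all 10.
HNRNPA1, chr12:54286962-54286991, plus strand: tgtgaagacctttatCTGAGCCactgtact
SSH2, chr17:29630825-29630854, minus strand: ataataccatgtgattCTGAGCCtacacat
KLF11, chr2:10054681-10054710, plus strand: tgatcttttgtgacttTGAGCCttttaagt
STC2, chr5:173317209-173317238, minus strand: ttctatgtgtaatttCTGAGCCattgtact
SNORD57, chr20:2656953-2656982, plus strand: tgtCTGAGCCtgaccttgtagaatggaggc
In HNRNPA1, SSH2, KLF11 and STC2 the crosslinked T is base 15 and lies 1 or 2 bases before the match. In SNORD57 it is base 16 and lies past the 3′ end of the match.

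The TGF-beta1 libraries had 5293207 and 3415699 reads and the control libraries 1714445 and 1926255. Crosslinked reads at the listed sites summed to 74969 and 72206 with TGF-beta1 and to 36958 and 53835 in control, and 1874 of the 16230 sites had no read in either control library against 193 with none in either TGF-beta1 library. Of 12 proximal tubule markers only PAX8, a renal transcription factor, had a listed site, and of 7 epithelial markers KRT18, CDH2 and CLDN1 had one. None of the 10 immune, endothelial and fibroblast markers did. The list records crosslinks and not expression, so it is a weak check of the cell type.

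Most members were shallow. The miR-23 sites held between 2 and 587 crosslinked reads over the 4 libraries with a median of 8, and the miR-24 sites between 2 and 103 with a median of 7; the median over the rest of the series was 7. At most 10 reads lay at 229 of 357 miR-23 sites (64.1%) and at 145 of 217 miR-24 sites (66.8%). The 10 strongest miR-23 sites took 37.8% of that family's 6720 reads and the 10 strongest miR-24 sites 26.3% of 2637. Reads came from all 4 libraries at 156 miR-23 sites (43.7%) and 79 miR-24 sites (36.4%), against 48.6% of miR-27 sites, 45.3% of sites of other seeds and 25.1% of sites with no listed seed. Both control libraries were at 0 at 39 miR-23 and 28 miR-24 sites, and both TGF-beta1 libraries at 5 and 1 (the controls were the shallower libraries). Wilson intervals below are for counts of sites and treat sites as independent. Reads without molecular identifiers are not independent molecules, so the interval given for reads of IL11 covers counting error only.

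A 7-base match to nucleotides 2 to 8 was present at 116 miR-23 sites and 51 miR-24 sites. Matches of 6 bases to nucleotides 2 to 7 numbered 145 and 76, those to nucleotides 3 to 8 numbered 87 and 81, and each family had 9 bulged matches. The 116 full miR-23 matches were 32.5% of the miR-23 sites and held 51.7 and 53.3% of their reads with TGF-beta1, against 52.9 and 56.5% in control. The 51 full miR-24 matches were 23.5% of the miR-24 sites and held 34.8 and 34.3% of their reads with TGF-beta1, against 34.6 and 37.5% in control. In both families full matches thus took a larger share of reads than of sites in all 4 libraries.

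By transcript feature, 170 miR-23 sites lay in 3′ UTRs (47.6%, Wilson 95% interval 42.5 to 52.8%), 85 in coding sequence, 61 in introns and 16 in non-coding RNA. Among miR-24 sites 87 lay in 3′ UTRs (40.1%, 33.8 to 46.7%), 47 in coding sequence, 48 in introns and 19 in non-coding RNA. The share was 46.4% at miR-27 sites and 45.2% at sites of other seeds, both within the miR-23 and the miR-24 interval, and 28.3% at sites with no listed seed. Non-coding RNA made up 8.76% of miR-24 sites (5.68 to 13.3%) and 4.48% of miR-23 sites (2.78 to 7.16%), against 4.99% in the rest. Of the 19 miR-24 sites in non-coding RNA, 14 lay in small nucleolar RNAs, which guide modification and processing of ribosomal RNA, against 1 of 16 for miR-23. Sites are not independent where they share a transcript: DCBLD2 alone held 11 miR-23 sites, and FN1 6 miR-24 sites.

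Pooled over match types, the crosslinked base fell most often at a different place relative to the match in each family. Of the 348 miR-23 sites without a bulge, 121 (34.8%) had the crosslink at the T that faces microRNA nucleotide 6, inside the match, and 79 (22.7%) at a T facing nucleotide 9, which lies directly before the match at the 53 of them with a full match. Another 25 faced nucleotide 4, the other T of the miR-23 match. Of the 208 unbulged miR-24 sites, 43 (20.7%) faced nucleotide 7, the only T of the miR-24 match, and 35 (16.8%) faced nucleotide 9. The T lay 3 bases or more before the match at 64 (30.8%), beside 18.1% for miR-23 and 24.4% for other seeds. It lay past the match at 40 (19.2%), beside 14.4 and 18.1%. By the deposited label the match was neither adjacent nor near at 39.2% of all miR-24 sites, beside 22.1% (miR-23) and 29.4% (other seeds). Those sites held 37.1 and 30.7% of miR-24 reads with TGF-beta1 and 30.1 and 24.4% in control. The miR-27 match has its T letters at the same places as the miR-23 match, and there the pooled order was turned round, with 44.3% of 794 sites facing nucleotide 9 and 12.3% facing nucleotide 6. Among full 7-base matches alone, nucleotide 9 led in each family. It was faced at 53 miR-23 sites against 30 facing nucleotide 6, and at 156 miR-27 sites against 13. For miR-24 it was faced at 21 full matches, against 5 facing nucleotide 7. Sites of all other seeds faced nucleotide 9 at 28.2% and nucleotide 6 at 0.818%; their matches differ in where they hold a T. These shares are descriptions of the list and were not tested.

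**Figure D1:**
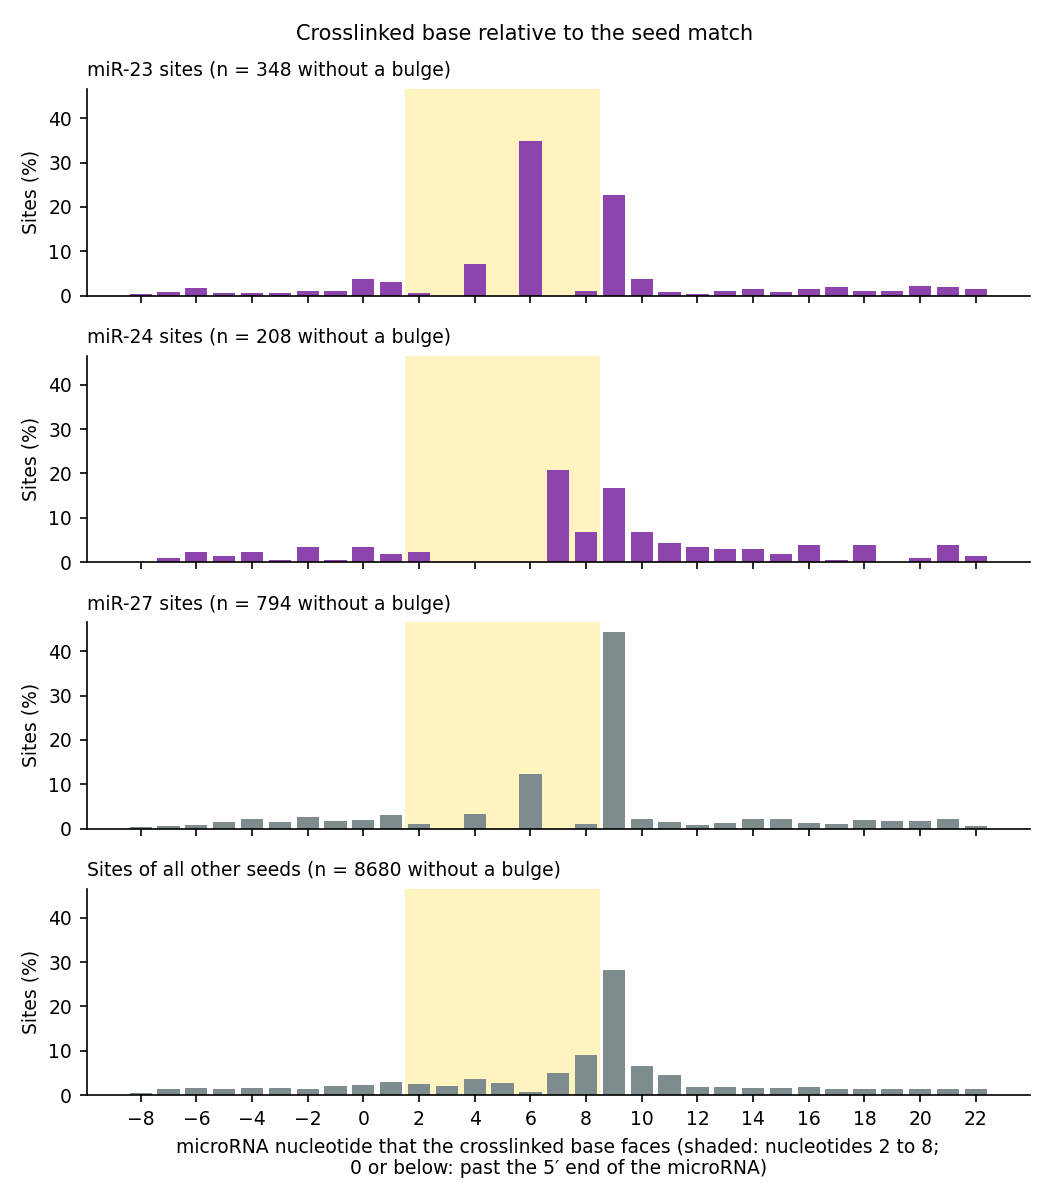
Share of unbulged sites (y axis, percent) by the microRNA nucleotide that the crosslinked base faces (x axis) for miR-23, miR-24, miR-27 and all other seeds, with nucleotides 2 to 8 shaded. The miR-23 sites peak at nucleotide 6 (34.8%) and the miR-24 sites at nucleotide 7 (20.7%), both inside the match, while miR-27 (44.3%) and the other seeds (28.2%) peak at nucleotide 9. Match types are pooled, and among full matches alone miR-23 and miR-24 sites also face nucleotide 9 most often.

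Among full matches, sites with the crosslink just before the match were the deeper ones. Among miR-24 matches to nucleotides 3 to 8 they were not deeper than sites crosslinked inside the match. Among the 116 full miR-23 matches, the T lay 1 or 2 bases upstream at 58 (50%, Wilson 95% interval 41.0 to 59.0%), with a median of 19.5 reads, and inside the match at 34 (29.3%), with a median of 8. Their medians per library were 6 and 4.5 reads with TGF-beta1 and 3 and 4 in control for the upstream sites, and 2 and 2 with TGF-beta1 and 1 and 1 in control for those inside. Upstream sites were in 3′ UTRs at 79.3%, and sites inside the match at 41.2%. Among the 51 full miR-24 matches, 25 had the crosslink 1 or 2 bases upstream, with a median of 16 reads and 80% in 3′ UTRs, and 5 inside, with a median of 8 and 0 in 3′ UTRs. For full matches of all other seeds the upstream class made up 61.2%, with a median of 16 reads and 61.9% in 3′ UTRs.

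Where a T was available directly before a full match, it was usually the crosslinked base. That held at 53 of 62 such miR-23 sites (85.5%) and 21 of 34 such miR-24 sites (61.8%), beside 91.2% for miR-27 and 84.7% for other seeds. Of the 54 full miR-23 matches with another letter there, 29 (53.7%) were crosslinked inside the match, and of 17 such miR-24 matches 4 were. The share of covering reads that carried the crosslink was compared between the classes within each library, over all match types. At miR-23 sites crosslinked 1 or 2 bases upstream it was 56.9 and 56.1% with TGF-beta1 and 59.9 and 62.1% in control, and at those inside the match 16.7 and 18.1% with TGF-beta1 and 20.0 and 23.3% in control. At miR-24 sites it was 23.03 and 27.6% with TGF-beta1 and 22.8 and 28.6% in control upstream, and 14.7 and 19.7% with TGF-beta1 and 23.6 and 27.8% in control inside. The share was thus higher upstream in all 4 libraries for miR-23; for miR-24 it was higher upstream in both TGF-beta1 libraries and nearly level in the controls.

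An A opposite the first microRNA nucleotide, a base that Argonaute binds in a pocket of its own, followed 67 of 106 full miR-23 matches with a readable base there (63.2%, Wilson 95% interval 53.7 to 71.8%). It followed 15 of 46 full miR-24 matches (32.6%, 20.9 to 47.0%), 58.7% of full miR-27 matches and 43.9% of those of other seeds. The miR-23 and miR-24 intervals did not overlap. The 4 letters that would pair with nucleotides 13 to 16, searched on the transcript strand only anywhere in the 31-base window, were no more frequent than elsewhere. TCCC stood in 4 of 116 windows with a full miR-23 match, against 5.81% of all 16230 windows, and CTGC in 4 of 51 with a full miR-24 match, against 15.04% of all windows. A full match fixes part of its window, and the 4 letters could stand at any place in the rest. The count therefore cannot decide whether nucleotides 13 to 16 pair.

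The first comparison between groups concerned how much of all Argonaute crosslinking lay at these sites. The miR-23 sites took 2.84 and 2.81% of crosslinked reads with TGF-beta1 and 2.94 and 2.74% in control, and the TGF-beta1 libraries lay between the controls (exact two-sided permutation test, p = 1). The miR-24 sites took 1.18 and 1.17% with TGF-beta1 and 1.10 and 0.936% in control. Both TGF-beta1 libraries were above both controls, at 1.17 ± 0.00534% against 1.02 ± 0.113% (SD, n = 2 each), with an exact p = 0.333, the smallest that 2 libraries against 2 can give. Without the non-coding RNA sites, an alternative chosen after seeing the data, that difference was 0.0794 percentage points in place of 0.158. Leaving out 1 library gave 0.0782 to 0.238, the lowest without control replicate 2 and the highest without control replicate 1, and the groups overlapped on covering reads and over sites crosslinked in every library (exact p = 0.667 in both). At miR-27 sites the shares were 7.10 and 7.27% with TGF-beta1 and 8.07 and 8.10% in control, both below, again with an exact p = 0.333. The difference between families was not tested. From bulk crosslinked reads alone, the amount of a transcript, the number of cells that express it and its occupancy by Argonaute cannot be told apart.

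The 3′ UTR share of miR-24 reads was lower in both TGF-beta1 libraries, in a design too small for the difference to pass a threshold of 0.05. It was 42.5 and 49.6% with TGF-beta1, against 58.0 and 65.7% in control. Both TGF-beta1 libraries lay below both controls, and the means were 46.0 ± 5.03% and 61.8 ± 5.41% (SD, n = 2 each), a difference of -15.8 percentage points (exact two-sided permutation test, p = 0.333, the smallest possible). Coding sequence took 18.8 and 17.8% of miR-24 reads with TGF-beta1 and 13.6 and 9.72% in control, and non-coding RNA 20.95 and 14.9% with TGF-beta1 and 15.6 and 7.34% in control. The small nucleolar RNA sites held 161 and 115 reads with TGF-beta1 and 55 and 36 in control. Leaving out the non-coding RNA sites, as added after seeing the data, gave 53.7 and 58.3% with TGF-beta1 and 68.7 and 70.9% in control. For full 7-base matches alone, also added afterwards, it gave 57.3 and 59.3% with TGF-beta1 and 73.6 and 76.7% in control. Reads of the rest of the series were from 3′ UTRs at 55.5 and 60.1% with TGF-beta1 and 58.6 and 66.2% in control, groups that overlap. The miR-23 share was 72.0 and 76.5% with TGF-beta1 and 72.2 and 77.9% in control, also overlapping (exact p = 0.667). At miR-27 sites it was 70.9 and 74.3% with TGF-beta1 and 75.6 and 81.5% in control, so there too both TGF-beta1 libraries lay below both controls. Differences between families were not tested.

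**Figure D2:**
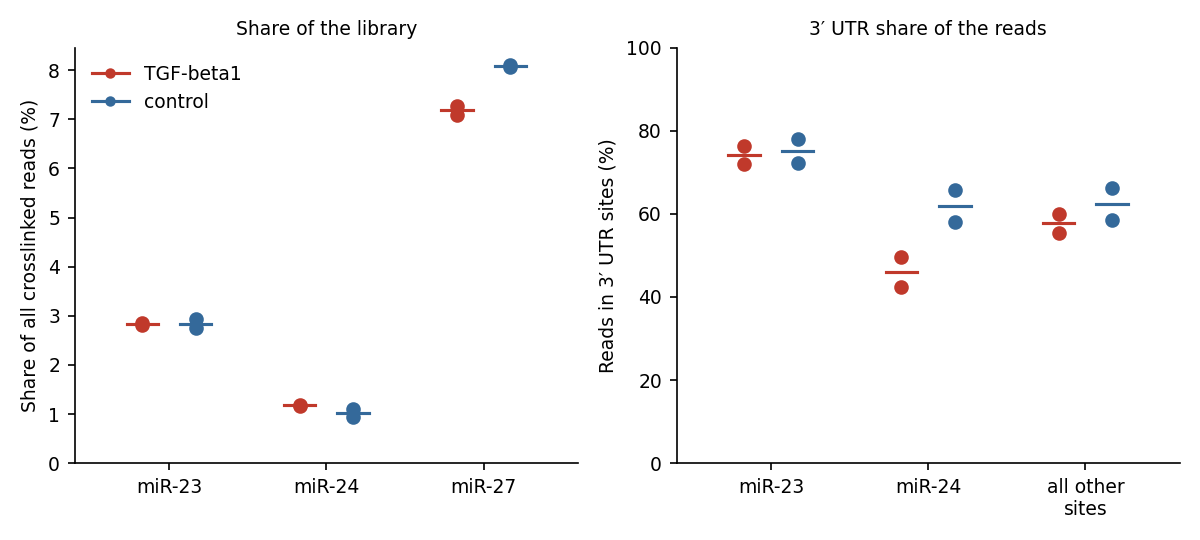
Left, share of all crosslinked reads (percent) at miR-23, miR-24 and miR-27 sites; right, share of the reads of miR-23 sites, miR-24 sites and all other sites that lie in 3′ UTRs (percent). Points are libraries, 2 with TGF-beta1 (red) and 2 controls (blue), and bars are means; for miR-24 the 3′ UTR shares are 42.5 and 49.6% with TGF-beta1 against 58.0 and 65.7% in control.

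Single sites are given as raw crosslinked reads per library, in the order replicate 1 then 2, and then as scaled RPM, which are reads relative to library depth adjusted by TMM factors that set the bulk of sites equal between libraries. The most crosslinked miR-23 site lay in the 3′ UTR of CNN2, which encodes calponin 2, an actin-binding protein, at chr19 position 1039011. It held 186 and 225 reads with TGF-beta1 and 77 and 99 in control, or 60.8 ± 4.95 and 38.3 ± 6.01 scaled RPM (SD, n = 2 each), and ranked 14th of all sites. Both TGF-beta1 libraries were above both controls, but the site missed the threshold (log2 difference 0.66 ± 0.22 SE, limma adjusted p = 0.0749). Without TMM scaling the log2 difference was 0.00333. The next was in the 3′ UTR of PNRC2, which links nonsense-mediated decay to decapping, with 163 and 142 reads with TGF-beta1 and 71 and 114 in control, or 45.4 ± 6.81 and 39.3 ± 0.0105 scaled RPM. After scaling its TGF-beta1 libraries were only slightly above the controls (adjusted p = 0.707).

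MT2A, a metallothionein that binds zinc and copper, had its miR-23 site in the 3′ UTR with 78 and 52 reads with TGF-beta1 and 51 and 90 in control. In scaled RPM that was 19.4 ± 6.48 and 29.6 ± 1.97, with both TGF-beta1 libraries below the controls (log2 difference -0.62 ± 0.28 SE, limma adjusted p = 0.205). NUFIP2, an RNA-binding partner of the fragile X protein, had 2 of the 10 strongest miR-23 sites in the same 3′ UTR. The stronger held 67 and 65 reads with TGF-beta1 and 58 and 61 in control, and the other 31 and 26 with TGF-beta1 and 21 and 33 in control. At the stronger the match covered nucleotides 3 to 8 only, with several bases between the crosslinked T and the match. After scaling both TGF-beta1 libraries lay below both controls at each of these sites, with log2 differences of -0.39 ± 0.28 and -0.41 ± 0.35 SE that did not pass (limma adjusted p = 0.479 and 0.604). ZFP36L1, which binds AU-rich elements and promotes decay of messages, held 85 and 74 reads with TGF-beta1 and 29 and 28 in control. Its scaled level of 23.7 ± 3.56 RPM against 12.8 ± 4.52 was higher in both TGF-beta1 libraries and did not pass (log2 difference 0.87 ± 0.31 SE, limma adjusted p = 0.0934). TET3, an oxidase of 5-methylcytosine, had 45 and 39 reads with TGF-beta1 and 28 and 38 in control, and MCFD2, a partner of the cargo receptor LMAN1, 39 and 28 with TGF-beta1 and 22 and 32 in control. An intergenic site held 60 and 69 reads with TGF-beta1 and 44 and 70 in control. The scaled values of TET3 and MCFD2 overlapped between groups, and the intergenic site's did not (log2 difference -0.33 ± 0.27 SE, adjusted p = 0.577).

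The strongest miR-24 sites held fewer reads than the strongest miR-23 sites. HNRNPA1, a splicing regulator that shuttles between nucleus and cytoplasm, held 36 and 33 reads with TGF-beta1 and 18 and 16 in control, or 10.3 ± 1.17 and 7.73 ± 3.14 scaled RPM, groups that overlapped. SSH2, a phosphatase that activates cofilin, held 28 and 23 reads with TGF-beta1 and 9 and 23 in control, also overlapping after scaling. KLF11, a transcription factor first found as TGF-beta inducible, held 17 and 14 reads with TGF-beta1 and 17 and 23 in control. Its scaled level was 4.62 ± 0.874 RPM against 8.66 ± 1.05, lower in both TGF-beta1 libraries without passing (log2 difference -0.79 ± 0.42 SE, limma adjusted p = 0.312). JPT1 held 18 and 25 reads with TGF-beta1 and 6 and 19 in control, and ENTPD7, a nucleotide hydrolase, 16 and 23 with TGF-beta1 and 7 and 13 in control. The scaled values of JPT1 overlapped, and those of ENTPD7 were higher in both TGF-beta1 libraries without passing (log2 difference 0.38 ± 0.47 SE, limma adjusted p = 0.729). TRAM2, an endoplasmic reticulum protein, held 5 and 13 reads with TGF-beta1 and 15 and 24 in control. That was 2.63 ± 1.54 against 8.28 ± 0.0228 scaled RPM, with both TGF-beta1 libraries below both controls and an adjusted p of 0.0838 by limma (log2 difference -1.42 ± 0.49 SE). STC2, a secreted glycoprotein, held 6 and 13 reads with TGF-beta1 and 14 and 13 in control, lower in both TGF-beta1 libraries after scaling (log2 difference -0.92 ± 0.52 SE, limma adjusted p = 0.341).

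Small nucleolar RNAs made up 3 of the 10 strongest miR-24 sites, and at none of the 3 did the crosslinked T lie in or directly before the match. That was not particular to them. At TRAM2, also among the 10, the T lay past the 3′ end of the match, and at SSH2 and KLF11 another base stood between the T and the match. At SNORD3A and SNORD104 the T was base 15 of the 30-base window, and the match began near the 3′ end of the window. The SNORD3A match covered only nucleotides 3 to 8. At SNORD57 the T lay past the 3′ end of the match. SNORD3A, the U3 RNA of ribosomal RNA processing, held 52 and 24 reads with TGF-beta1 and 20 and 5 in control. SNORD57 held 22 and 22 reads with TGF-beta1 and 9 and 0 in control, and SNORD104 22 and 16 with TGF-beta1 and 6 and 9 in control. Both TGF-beta1 libraries were above both controls at SNORD57 and SNORD104, and the groups overlapped at SNORD3A. None of these passed, with limma adjusted p of 0.293, 0.14 and 0.529. At SNORD3A, SNORD57 and SNORD104, 8.03, 16.5 and 14.9% of the covering reads carried a crosslink, beside 14.6 and 18.3% with TGF-beta1 and 19.6 and 21.9% in control over all miR-24 sites. SNORD3A has near-identical copies in the genome, so its reads are uncertain.

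**Figure D3:**
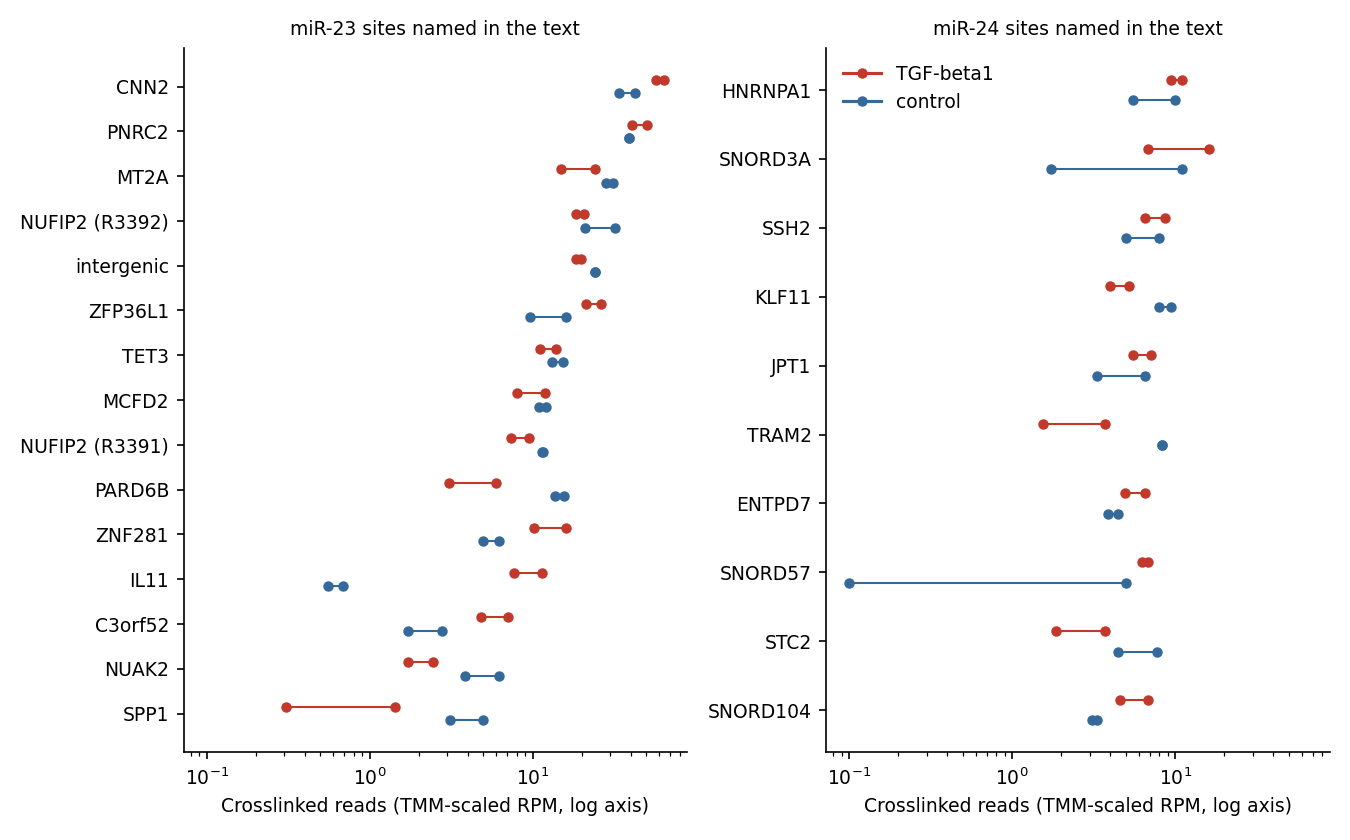
Crosslinked reads per library (x axis, TMM-scaled RPM, log axis) at the miR-23 sites (left) and miR-24 sites (right) named in the text, with the 2 TGF-beta1 libraries in red above the 2 controls in blue at each site, joined by a line. IL11 and PARD6B show separated groups in opposite directions; the control library of SNORD57 with 0 reads is drawn at the left end of its line.

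The second comparison asked which single sites changed after TGF-beta1. Of the 574 members, 41 had enough reads to be tested (28 miR-23 and 13 miR-24), and 2 passed a limma test adjusted over all 1059 tested sites, 1 higher and 1 lower. Over all tested sites 7.08% passed, 3.68% as higher and 3.4% as lower, so 2 of 41 (4.88%) is not above the background. Before adjustment, 6 members were higher (14.6%) and 4 lower (9.76%) at p under 0.05, beside 10.5 and 8.78% of all tested sites. The median log2 difference was -0.09 over the tested miR-23 sites and 0.38 over the tested miR-24 sites, beside 0.05 over all tested sites. A member could pass the read filter, which is relative to library depth, through either group alone, where it is high. These medians therefore do not stand for all 574.

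The higher site lay in the 3′ UTR of IL11, a cytokine of the interleukin-6 family known in fibrosis, at chr19 position 55365573. It held 37 and 27 reads with TGF-beta1, against 1 and 2 in control, or 9.55 ± 2.60 and 0.621 ± 0.0959 scaled RPM (SD, n = 2 each). The groups were far apart, and the 64 reads against 3 gave a ratio of 14.9 with an exact counting interval of 4.88 to 74.2. That interval pools the libraries of each group, leaves out the spread between them and adds no support to the test. On the log2(scaled RPM + 1) scale the difference was 2.68 ± 0.54 SE (limma adjusted p = 0.00234). A second miR-23 site of IL11 held 3 and 2 reads with TGF-beta1 and 0 and 0 in control, and the miR-23 sites together took 80.9% of the 89 reads in this gene. The IL11 site met the read filter through the TGF-beta1 libraries alone, and its call was lost without TMM scaling (adjusted p = 0.0575).

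The lower site lay in the 3′ UTR of PARD6B, a subunit of the polarity complex that forms epithelial tight junctions, at chr20 position 50750873. It held 10 and 21 reads with TGF-beta1, against 25 and 45 in control, or 4.54 ± 2.06 and 14.7 ± 1.18 scaled RPM. Both TGF-beta1 libraries were below both controls, with a log2 difference of -1.55 ± 0.39 SE (limma adjusted p = 0.0146). Another PARD6B site, with a miR-29a-3p match, held 39 and 31 reads with TGF-beta1 and 61 and 75 in control, and also passed (log2 difference -1.43, limma adjusted p = 0.00291). The fall was therefore not limited to the miR-23 site of this transcript. The PARD6B call was lost with DESeq2 (adjusted p = 0.0523) and without the variance trend (adjusted p = 0.0831), and both calls were lost on covering reads, without the read filter, and when either TGF-beta1 library was left out; PARD6B was lost without control replicate 2 as well.

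Other tested members with large differences did not pass. ZNF281, a zinc finger transcription factor, had a miR-23 site with 33 and 56 reads with TGF-beta1 and 9 and 18 in control, both above both controls (log2 difference 1.07 ± 0.38 SE, limma adjusted p = 0.0959). C3orf52 held 23 and 17 reads with TGF-beta1 and 5 and 5 in control (adjusted p = 0.235). At the low end, the miR-23 site of SPP1, the matrix protein osteopontin, held 1 and 5 reads with TGF-beta1 and 9 and 9 in control (log2 difference -1.47, adjusted p = 0.163). That of NUAK2, a kinase related to AMPK, held 8 and 6 reads with TGF-beta1 and 7 and 18 in control (log2 difference -0.95, adjusted p = 0.345). After scaling the groups did not overlap at C3orf52, SPP1 or NUAK2. C3orf52 met the read filter through the TGF-beta1 libraries alone, and SPP1 and NUAK2 through the controls alone. The SPP1 match covered nucleotides 3 to 8 only, and the crosslinked T lay past its 3′ end. With the replicate number as a block, 6 members passed in place of 2 (14.6% of the 41), beside 117 in place of 75 of all tested sites (11.05%): IL11, PARD6B, ZFP36L1, ZNF281, SNORD57 and TRAM2.

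**Figure D4:**
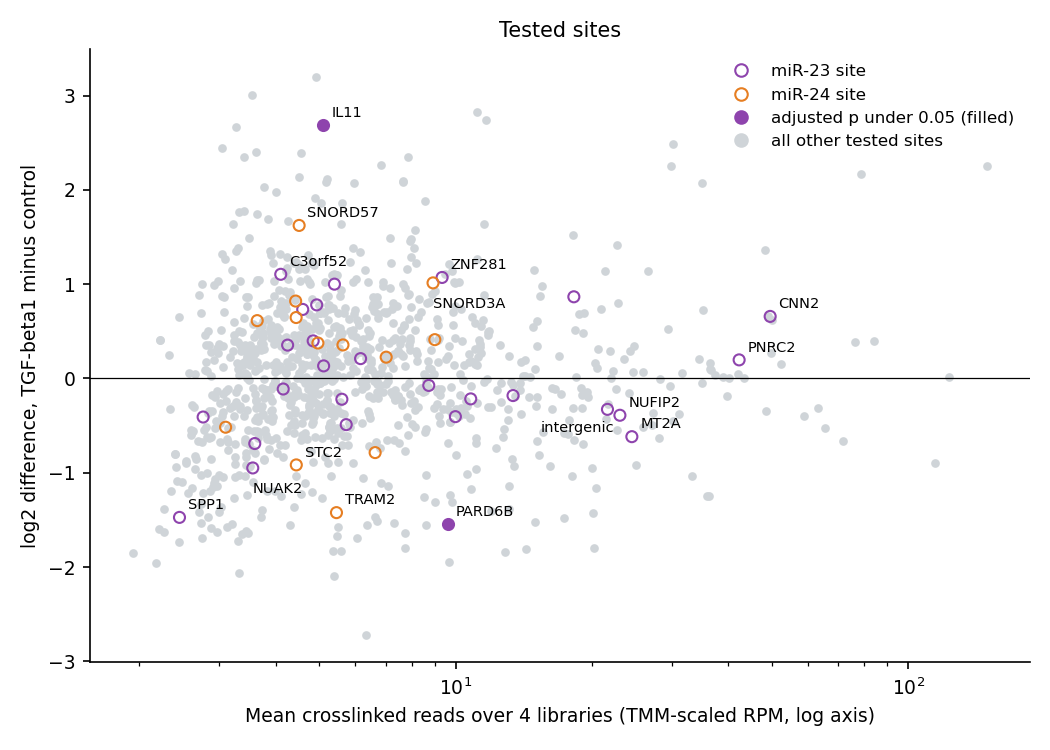
The log2 difference between TGF-beta1 and control (y axis) against the mean level over 4 libraries (x axis, TMM-scaled RPM, log axis) for 28 miR-23 sites (purple), 13 miR-24 sites (orange) and all other tested sites (grey); filled family points passed the adjusted threshold. IL11 at 2.68 and PARD6B at -1.55 are the filled ones, and the 2 strongest, CNN2 and PNRC2, lie at 0.66 and 0.20.

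The third comparison took each transcript as a whole, summing all its crosslink sites whatever their seed. A member lay in 455 named genes, of which 264 were tested; 7 were higher and 7 lower by limma (5.30%). Over all 1266 genes tested 3.08% passed, 1.58% as higher and 1.5% as lower, and among genes without a member the share was 2.50%. Genes with a member also had more reads (median 120 against 75) and more sites (median 8 against 4), and the part of this in their share of calls was not tested.

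The higher genes included FN1, PMEPA1, FRMD6, IL11, SGK1 and TPM1. FN1, the matrix protein fibronectin, stood at 298 ± 15.1 scaled RPM with TGF-beta1 against 86.9 ± 9.35 in control (log2 difference 1.77 ± 0.19 SE, limma adjusted p = 0.000455). Its 7 member sites together held 20 and 12 reads with TGF-beta1 and 3 and 0 in control, 1.41% of its reads. PMEPA1, an inhibitor of SMAD signalling, stood at 51.4 ± 6.67 with TGF-beta1 against 8.46 ± 0.232 in control, and its miR-23 site held 12 and 17 reads with TGF-beta1 and 0 and 3 in control. In FN1, PMEPA1, FRMD6, SGK1 and TPM1 members gave at most 8% of the gene's reads.

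The lower genes were PARD6B, NUAK2, MT2A, AHNAK, AMOTL2, GPRC5A and ZFHX4. PARD6B fell to 21.3 ± 0.469 scaled RPM with TGF-beta1, against 70.9 ± 0.600 in control (log2 difference -1.69 ± 0.22 SE, limma adjusted p = 0.0023), with 21.6% of its reads at the miR-23 site. MT2A fell to 29.1 ± 4.93 with TGF-beta1, against 60.9 ± 3.87 in control (limma adjusted p = 0.037), with 57.1% at that site. NUAK2 stood at 29.6 ± 5.72 with TGF-beta1 and 73.0 ± 17.2 in control (limma adjusted p = 0.0224), with 7.16% at its member. AMOTL2, a scaffold of the Hippo pathway, and AHNAK, a large membrane-associated scaffold, each held 1 member. That of AMOTL2 stood at 0.616 and 0.571 scaled RPM with TGF-beta1 and 0.553 and 0.689 in control, groups that overlapped, and that of AHNAK at 2.16 and 2.29 with TGF-beta1 and 3.87 and 2.75 in control, lower in both TGF-beta1 libraries and not tested. The calls were lost when either control library was left out, which leaves 1 library in that group. This loss was over the whole series and not only among genes with a member.

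Published targets were looked up by gene, in lists written from general knowledge with earlier results of these data known. The shares with a member rest on 2 genes per list, are not independent of the data and were not tested. Of 28 genes reported elsewhere as miR-23 targets, 13 had any Argonaute site and 2 of these (15.4%) a miR-23 site, among them MT2A, given above, beside 6.72% of all 4361 genes with a listed site. Of 33 symbols reported as miR-24 targets, 17 had any site and 2 of these (11.8%) a miR-24 site, beside 4.29% of all genes with a listed site. XIAP, an inhibitor of apoptosis, held 6 and 3 reads with TGF-beta1 and 0 and 2 in control at a full match in its 3′ UTR, and NET1, an activator of RhoA, 1 and 2 with TGF-beta1 and 1 and 3 in control. By gene, 0 of 8 tested miR-23 targets were higher and 1, MT2A, lower, and 0 of 11 tested miR-24 targets changed; the list medians were 0.17 and -0.06 beside 0.02 over all genes (log2 difference).

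Of 46 genes of TGF-beta signalling, 28 had a listed site and 3 of these a member, beside 455 of all 4361 named genes with a listed site. By role these were the activator THBS1, with a miR-23 site of 1 and 1 reads with TGF-beta1 and 0 and 0 in control, and the inhibitors PMEPA1, given above, and TGIF1, a repressor of SMAD targets, with 1 and 4 reads with TGF-beta1 and 3 and 6 in control. No listed receptor or SMAD held a member. Among the 16 tested genes of this list the receptor BMPR2, the ligand subunit INHBA and the inhibitors PMEPA1 and SMAD7 were higher and the integrin ITGB8 lower. Over all 1266 genes tested, 1.58% were higher and 1.5% lower. Of the 5 named here, only PMEPA1 held a member. Of the names for the cluster hosts and precursors only C9orf3, the host of the miR-23b cluster, had a site, which is not a member.

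A miR-23 and a miR-24 site stood in 25 common genes, 8.53% of the 293 genes with a miR-23 site and 13.4% of the 187 with a miR-24 site. Over all 4361 named genes 6.72% held a miR-23 site, 4.29% a miR-24 site and 15.02% a miR-27 site. With miR-27 sites, found in 655 genes, miR-23 shared 66 genes (22.5% of its own and 10.1% of those of miR-27) and miR-24 shared 58 (31.02% and 8.85%), and 14 genes held all 3. By summed level the leading genes with both families included DCBLD2, HNRNPA1, MGEA5 and FAT1. DCBLD2, a transmembrane receptor-like protein, held 11 miR-23 and 3 miR-24 sites with 47 and 29 reads with TGF-beta1 and 23 and 31 in control, 3.05% of the reads of this heavily crosslinked gene. MGEA5, which encodes the enzyme that removes O-linked N-acetylglucosamine, held 1 of each with 30 and 30 reads with TGF-beta1 and 16 and 29 in control. FAT1, an atypical cadherin, held 4 and 1 with 22 and 16 reads with TGF-beta1 and 6 and 6 in control. The nearest miR-23 and miR-24 sites lay 420 nt apart in DCBLD2, 619 nt in MGEA5 and 2108 nt in HNRNPA1.

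A further seed was listed at 106 of the 357 miR-23 sites and 69 of the 217 miR-24 sites, but lay next to or near the crosslink at only 9 and 17 of them. The further seed near the crosslink was that of miR-23 at 4 miR-24 sites, of miR-181 at 3 miR-23 sites and of miR-27 at 1 miR-23 site. In the other direction, 221 sites assigned to other microRNAs listed a nearby miR-23 match as a further seed, against 10 for miR-24. Of those 221, miR-181 came first at 87, the miR-25 and miR-92 family at 36 and miR-205-5p at 26. These sites were not counted as members.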

How the data were processed

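PAR-CLIP reads were processed by the authors before deposit; tools in the submitters' processing notes are bedtools, STAR 2.7.1a and bcl2fastq 2.20.0.422, the build is hg38, and the crosslink caller is not given in the sources used here. The deposited table gives covering and crosslinked reads per site and library in RPM of all library reads, per the file headers, with a microRNA seed annotation and, per seed, the authors' score of microRNA reads. All RPM values were whole reads within 0.1 reads (100%), so depth was recovered. Another 4 columns of per-sample values, headed RNAseq, were not used, so transcript amount was not set beside crosslinking.

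Crosslinked reads were tested as log2(TMM-scaled RPM + 1) with limma 3.58.1 (trend; edgeR 4.0.16 filterByExpr, minimum count 10; R 4.3.3), two-sided, with Benjamini-Hochberg adjustment over 1059 sites or 1266 gene sums, threshold 0.05. This log scale understates changes of low sites. Shares were compared by exact permutation tests (scipy 1.17.1). Recovered reads were also tested with edgeR (82 sites called) and DESeq2 1.42.0 as alternatives.

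Named sites are members that passed, the 10 strongest of each family, the 5 largest differences each way, the 5 strongest genes with both families and published targets; genes whose sum passed and list genes with a member were added after their values were seen. 26 miR-23 and 18 miR-24 matches run past the window, and 0 of 556 match positions differed from the deposited ones. Members and lists were chosen with earlier results of these data known. Deviations of same-numbered libraries correlated at 0.117 over sites but there are only 2 pairs, and the libraries were treated as unpaired. Some genes and sequences that these rules select are not reported here.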

Additional observations from a re-analysis of the deposited data

How the results depend on the processing

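Calls depended on the setting. The count of member sites called was 2; it was 1 without TMM scaling, with DESeq2 and without the trend, and 0 without the read filter (72 up and 8 down at p under 0.05 before adjustment) and on covering reads (28 and 7). The replicate block gave 6, and leaving out 1 library 0 to 8. Over all sites the count was 75, against 28 without TMM, 42 with DESeq2, 25 without the trend, 0 without the filter (2018 and 299 unadjusted), 0 on covering reads (863 and 236), 117 with the replicate block and 3 to 110 with 1 library left out. Genes with a member numbered 14, against 9 without TMM, 2 without the trend, 4 without the filter, 8 on covering reads and 0 to 9 with 1 library left out. Over all tested genes 20 were higher and 19 lower, against 6 and 23 without TMM and 3 and 0 without the trend. Without the filter 4 and 0 passed among all genes, and on covering reads 18 and 7. Leaving out either control library lost the calls over all tested genes as well. The count of genes thus moved over the whole series and not only among genes with a member. Without TMM the median log2 difference of all sites was -0.51, and PNRC2 (-0.46), HNRNPA1 (-0.18), SSH2 (-0.37), JPT1 (-0.21) and ENTPD7 (-0.17) turned negative. PNRC2 (-0.0635) and ENTPD7 (-0.26) did so on covering reads. With 1 library left out, log2 differences that turned sign ranged from -0.34 to 0.13 for TET3, -0.37 to 0.21 for MCFD2, -0.0123 to 0.84 for HNRNPA1, -0.11 to 2.12 for SNORD3A and -0.00949 to 0.56 for SSH2. The miR-23 share of reads differed by 0.018 percentage points over sites crosslinked in every library and by -0.111 to 0.0813 with 1 library left out, with a turned sign at 0.00418 without TGF-beta1 replicate 2. The miR-23 3′ UTR share differed by 1.28 over sites crosslinked in every library and by -3.72 to 2.04 with 1 library left out, 1.41 without TGF-beta1 replicate 1. The miR-27 share turned to 0.112 without sites that list a second seed. The cause of each was not tested. The difference in the miR-24 3′ UTR share stayed negative with any 1 library left out, reaching -19.6 without control replicate 1. Of the values of single named sites, 289 kept direction and side of the threshold, 12 turned, 8 came to pass it and 12 no longer passed. Those 12 belonged to the only members called, 5 to IL11 and 7 to PARD6B. Depth limits most members: only 41 of 574 were tested, and groups of 2 cannot pass 0.05 in a permutation test.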
